A study of Mus musculus with 2 samples.

Results

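The cells described here are macrophages from mouse gliomas that were chosen by the transcripts of Fcrl5, Klra17, Cd300e, Acp5 and Ms4a7. They numbered 1291 of the 23585 cells that passed the quality limits, with 569 in a wildtype library and 722 in a Glut5 KO library. Both libraries held CD45+ leukocytes, isolated with magnetic beads from CT-2A tumours (a mouse glioma line) 14 days after the line was put into the brain, with 16000 cells loaded per library on a 10x 5′ version 2 kit. Glut5 is the fructose transporter encoded by Slc2a5, and the wildtype mice and the Glut5 KO mice differed by that genotype as the labels give it. The design text names a knockdown instead, and the groups keep the sample labels' wording. No source used here gives the strain, the age, the number of animals or which cells carry the deletion.

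Members were selected on UMIs, the unique transcript tags counted per cell. A cell first had to reach macrophage level, at least 100 UMIs per 10000 from the summed genes Lyz2, C1qa, C1qb, C1qc and Apoe. It also had to stay within 4 limits on other cells: at most 1 UMI of 6 microglia genes, no UMI of the Cd3 genes, at most 1 UMI of 6 dendritic cell genes and at most 2 UMIs of 5 cell division genes. Each of the 2469 wildtype and 3166 Glut5 KO cells that met all of this, called eligible macrophages below, was scored for 4 sets of genes by the mean z value of log-scaled expression. Cells scoring highest for the 5 genes above are the members. The other 3 sets were scored on Ly6c2, Chil3, Plac8 and Vcan, on Ptgs2, Vegfa, Il1rn, Cxcl2 and Ccrl2, and on Pf4, Spp1, Fabp5, Mrc1 and Vcam1.

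Macrophages of a brain tumour come both from microglia, which live in the brain from before birth, and from blood monocytes that enter the tumour and differentiate there. Classical monocytes carry Ly6c2 and travel by CCR2, while nonclassical monocytes patrol vessels, carry CX3CR1 and depend on NR4A1. On their way to macrophages monocytes lose Ly6c2, switch on complement C1q and, under interferon-gamma from lymphocytes, load their surface with MHC class II, the complex that shows peptides to CD4 T cells. Receptors of the Fc, CD300, Ly49 and MS4A families, to which most of the genes used here belong, pass activating or inhibiting signals into such cells.

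The 5 genes that picked the cells are described without a test. Fcrl5, a receptor of the Fc-receptor-like family known best on B cells, stood at 103 CPM (UMIs per 1000000 UMIs of the cells concerned) in wildtype members and 96.6 CPM in Glut5 KO members, against 0.37 and 1.56 CPM in the other 3 sets pooled. Klra17, which encodes the lectin receptor Ly49Q, stood at 205 and 141 CPM in members and 6.8 and 5.84 CPM outside. Cd300e, an activating receptor of monocytes, stood at 143 and 152 CPM in members and 3.4 and 2.63 CPM outside. These 3 genes were close to 0 in the other sets of both libraries. Acp5, the tartrate-resistant acid phosphatase of osteoclasts and macrophages, and Ms4a7, a membrane protein of macrophages with 4 transmembrane spans, were instead graded. Acp5 stood at 1249 and 1033 CPM in members, and next highest in the Pf4 Spp1 Mrc1 set at 552 and 454 CPM. Ms4a7 stood at 1181 and 1576 CPM in members, and again next highest in the Pf4 Spp1 Mrc1 set, at 528 and 797 CPM.

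**Figure D1:**
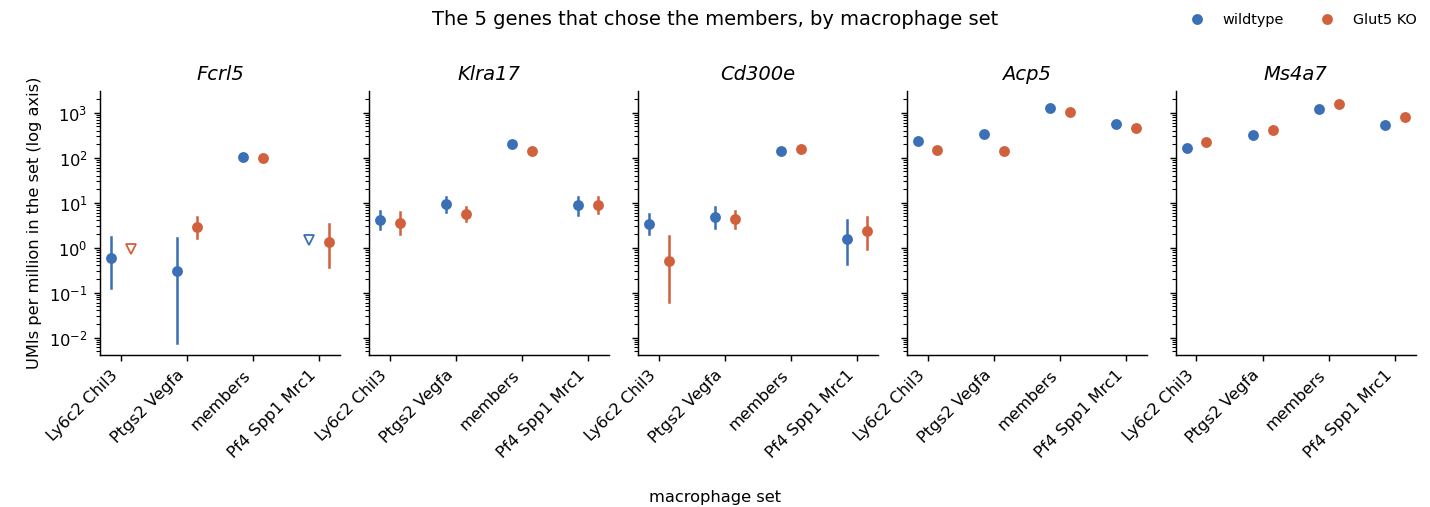
CPM (log axis) of the 5 genes that chose the members, in each of the 4 macrophage sets of the wildtype and Glut5 KO libraries; lines are exact 95% Poisson intervals, and open triangles give the upper bound where no UMI was found. Fcrl5, Klra17 and Cd300e stood above 90 CPM in members and below 15 elsewhere, while Acp5 and Ms4a7 differed less between members and the Pf4 Spp1 Mrc1 set.

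A member often showed few of these transcripts. Fcrl5 was found in 26.4% of wildtype and 22.2% of Glut5 KO members, Klra17 in 44.99% and 30.6%, and Cd300e in 36.4% and 28.9%. In the Ly6c2 Chil3 set, of similar depth in the wildtype library (median 5484 UMIs, and 5251 UMIs in Glut5 KO), Fcrl5 was found in 0.116% and 0% of cells, Klra17 in 1.98% and 1.39% and Cd300e in 1.28% and 0.253%. Acp5 was found in 84.4% and 78.1% of members, and Ms4a7 in 90.7% and 88.8%. All 5 genes were found together in 79 wildtype and 65 Glut5 KO members, and 1 alone in 98 and 159. The number found moved with depth: the median was 1271.5 UMIs (wildtype) and 886 UMIs (Glut5 KO) in members with 1 gene, 4864 and 2078 UMIs with 2 genes, and 7006 and 7913.5 UMIs with 3 or more. Over all members the median was 5634 UMIs in the wildtype library and 2668 UMIs in the Glut5 KO library. The score of a member led the next set's by less than 0.25 in 168 wildtype cells (29.5%) and 201 Glut5 KO cells (27.8%). Just inside the boundary the median score for the 5 genes was 0.06 and -0.04. Just outside it, among 276 wildtype and 356 Glut5 KO cells of other sets that came within 0.25, the median was -0.12 and -0.46.

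The label of macrophage was checked against other markers. Of 16 core macrophage genes outside the rule, 1 was at least 1.5-fold higher and 3 were at least 1.5-fold lower in members than in the other sets in both libraries, with median log2 ratios of -0.03 (wildtype) and -0.05 (Glut5 KO). Over all genes counted 3.58% were higher and 5.91% lower. The higher core gene was Adgre1, which encodes F4/80, at 153 and 209 CPM in members and 83.0 and 93.0 CPM in the other sets. The lower ones were Cd14 (708 and 581 CPM against 1678 and 1460 CPM), Tlr2 (124 and 155 CPM against 302 and 324 CPM) and Msr1 (27.6 and 22.1 CPM against 55.2 and 58.7 CPM). Of 8 neutrophil markers, S100a8, S100a9 and Ly6g had no UMI in members of either library. The 8 summed to 65.3 and 64.2 CPM in members, nearly all from Csf3r (63.7 and 63.6 CPM, against 76.6 and 85.3 CPM in the other sets). The other sets summed to 83.2 to 129 CPM (wildtype) and 77.3 to 792 CPM (Glut5 KO). The 10 T cell markers outside the rule summed to 17.9 CPM in wildtype and 32.1 CPM in Glut5 KO members, and the 8 NK cell markers to 126 and 84.6 CPM. The 10 dendritic cell markers outside the rule summed to 178 and 157 CPM in members, below the 227 to 519 CPM of the other sets. The 8 microglia markers outside the rule summed to 1393 and 1582 CPM, within the 1094 to 2145 CPM of the other sets. The 9 B and plasma cell markers summed to 303 and 639 CPM in members, above the 110 to 145 CPM (wildtype) and 217 to 253 CPM (Glut5 KO) of the other sets. Ighm, the IgM heavy chain, made up most of the wildtype sum, at 245 and 195 CPM in members against 112 and 77.5 CPM. Ms4a1, which encodes CD20, had 0 and 2 UMIs in members. Of 7 markers counted 4 were at least 1.5-fold higher in members in both libraries and 0 lower (medians 1.12 and 1.71), but wildtype members had 0 UMIs of Jchain and 1 UMI of Igha, which are among the 4. The part of B lineage cells or their free RNA in the genes described below was not tested.

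Most transcripts of the 5 genes lay outside the members. Members held 6.19% of the Fcrl5 UMIs of the wildtype library and 10.7% of those of the Glut5 KO library, while cells at macrophage level that exceeded a limit held 92.0% and 82.2%. For Cd300e these shares were 11.7% and 18.5% in members and 84.1% and 76.4% past a limit. The limit on microglia genes alone took out 43.5% and 36.1% of the Fcrl5 UMIs. The limits are counts of UMIs, so deeper cells exceed them more often: eligible macrophages had medians of 5474 and 4326 UMIs, and cells past any limit 12174 and 10301.5 UMIs.

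Cells past the microglia limit were split by Fcrl5. The 1538 wildtype and 775 Glut5 KO cells with an Fcrl5 UMI had 203 and 187 CPM of Tmem119 and 335 and 233 CPM of Olfml3. These genes, P2ry12 and Sall1 belong to the limit itself, so how their levels differ from those of members is set by the rule and is not given. P2ry12, the purinergic receptor of resting microglia, stood at 29.6 and 28.5 CPM with Fcrl5 and at 109 and 150 CPM in the cells past the limit without Fcrl5, and Sparc at 33.8 and 31.0 CPM against 344 and 446 CPM. Sall1, a transcription factor of microglia, stood at 3.55 and 1.97 CPM against 22.5 and 26.0 CPM. The same Fcrl5-bearing cells had 1844 and 2070 CPM of Cd72 and 45.3 and 46.7 CPM of Pparg, while members had 1403 and 1722 CPM, and 54.0 and 58.6 CPM. Cells past the limit without Fcrl5 had 853 and 830 CPM of Cd72 and 15.5 and 12.9 CPM of Pparg. H2-Ab1 stood at 1564 and 4538 CPM in the Fcrl5-bearing cells past the limit. That was below the 5596 and 9173 CPM of members and the 2710 and 5194 CPM of cells past the limit without Fcrl5. The median depth of the Fcrl5-bearing cells was 13647 and 14266 UMIs, against 5634 and 2668 UMIs in members.

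**Figure D2:**
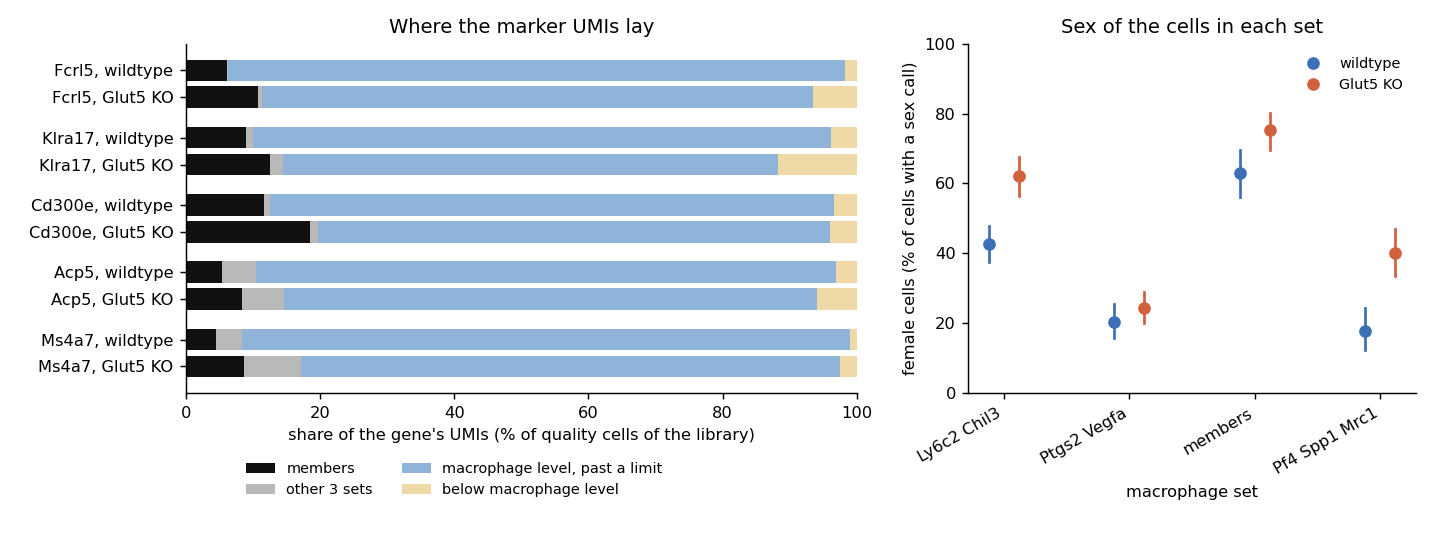
Left, the share of each gene's UMIs that lay in members, in the other 3 sets, in cells at macrophage level that exceeded a limit, and in cells below macrophage level, as a percentage of all quality cells of a library. Right, the share of female cells among cells with a sex call in each set, with exact 95% Clopper-Pearson intervals; members held 63.1% female cells in the wildtype and 75.2% in the Glut5 KO library.

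Both libraries mixed cells of both sexes, read from Xist against Y-linked genes. Female cells made up 63.1% of sexed members [56.1 to 69.7] in the wildtype library (130 female and 76 male) and 75.2% [69.5 to 80.3] in the Glut5 KO library (200 and 66). Brackets give exact 95% intervals throughout, which cover counting error only. In the other 3 sets together female cells made up 30.1% [26.9 to 33.3] and 40.8% [37.5 to 44.1]. Members had the largest female share of the 4 sets in both libraries. Each library thus held cells of more than 1 animal, and how many cells each animal gave cannot be told. Values in male and in female members alone are given beside the results they touch. They leave out 363 wildtype and 456 Glut5 KO members without a clear sex call. Sexed members were deeper than members at large. Their medians were 7610.5 and 8480 UMIs in male and 7436.5 and 7837 UMIs in female members (wildtype, then Glut5 KO), against 5634 and 2668 UMIs over all members. Barcodes present in both libraries numbered 188, of which 1 was a member in both.

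Next, members were compared with the other 3 sets pooled, within each library. The cells were chosen on 44 genes that were left out here, but other genes of the same cells are not independent of that choice, so no test is given. Of 9329 genes counted, 334 (3.58%) were at least 1.5-fold higher in members in both libraries and 551 (5.91%) were at least 1.5-fold lower in both, while 30 lay past that fold in opposite directions. Jchain, counted among the higher genes, and Camp and Ngp, among those in opposite directions, had no UMI in the wildtype sets, so their wildtype ratios come from the 0.5 added to each count. The 15 highest genes are described by kind, and in rank Asb2 came first, followed by Clec4b1, Pparg, Gpr31b and Cd72.

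Several encode receptors. Cd72, an inhibitory co-receptor best known on B cells, stood at 1403 CPM in wildtype and 1722 CPM in Glut5 KO members, against 290 and 364 CPM in the other sets, log2 ratios of 2.27 [2.21 to 2.34] and 2.24 [2.19 to 2.30]. It was the most abundant of the 15 highest genes. Clec4b1, a C-type lectin receptor of myeloid cells, stood at 57.8 and 78.7 CPM against 8.82 and 7.65 CPM, log2 ratios of 2.71 [2.35 to 3.08] and 3.36 [3.02 to 3.72]. Klrb1b, an inhibitory receptor first known from NK cells, stood at 135 and 99.3 CPM against 30.05 and 20.2 CPM. The 15 genes also held Clec4a1, another lectin receptor (367 and 388 CPM against 101 and 117 CPM), Siglece, an inhibitory receptor for sialic acids (199 and 181 against 64.5 and 49.1 CPM), and Lilra5, an activating immunoglobulin-like receptor (67.5 and 53.6 against 17.3 and 14.97 CPM). Gpr31b, a G protein-coupled receptor, stood at 93.6 and 83.7 CPM in members against 18.4 and 17.6 CPM.

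Adaptors and regulators were among the 15 genes as well. Asb2, the substrate-binding part of a ubiquitin ligase, had the highest wildtype ratio of the named genes, with 79.4 and 58.3 CPM in members against 8.27 and 7.32 CPM, log2 ratios of 3.26 [2.91 to 3.63] and 2.99 [2.63 to 3.37]. Pparg, the lipid-sensing nuclear receptor, stood at 54.0 and 58.6 CPM against 10.9 and 9.63 CPM, log2 ratios of 2.30 and 2.60. Zmynd15, a zinc-finger repressor, stood at 307 and 390 CPM against 76.7 and 94.0 CPM. Grap2 and Sh2d1b1 encode adaptors of immune receptors. Grap2 stood at 98.9 and 94.0 CPM against 19.9 and 27.0 CPM, and Sh2d1b1 at 79.1 and 74.8 CPM against 23.5 and 16.9 CPM. Cd79b, a signalling chain of the B cell receptor, stood at 54.6 and 72.2 CPM against 12.96 and 21.3 CPM. Cd81, a tetraspanin, had 808 and 827 CPM in members, and was also high in the Pf4 Spp1 Mrc1 set (715 and 608 CPM). Wfdc17, a small secreted protein, had 1161 and 996 CPM in members against 377 and 314 CPM.

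**Figure D3:**
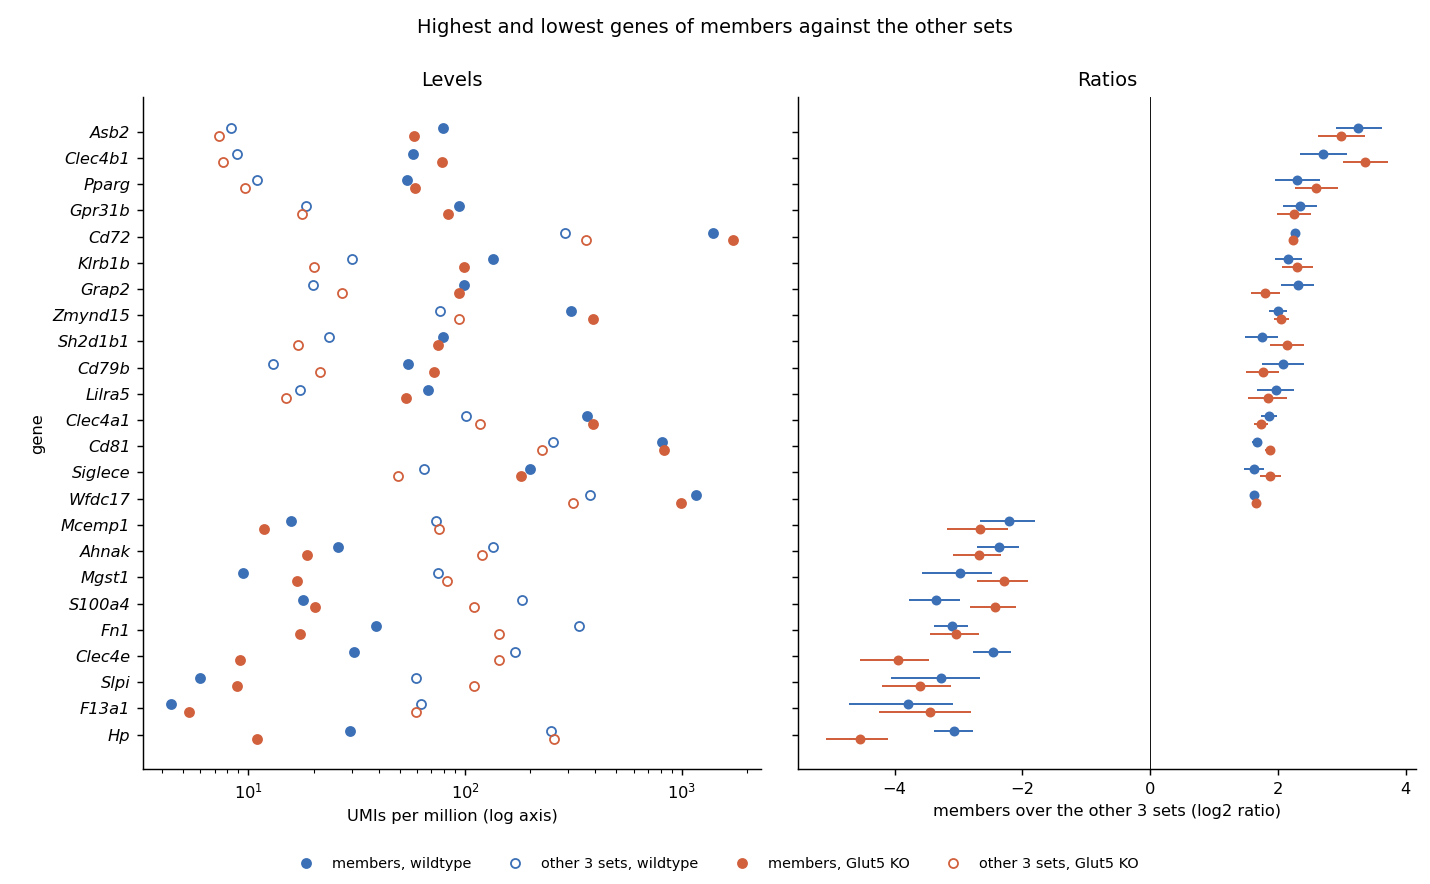
Left, CPM (log axis) in members and in the other 3 sets pooled for the 15 highest and 9 of the 10 lowest genes of that comparison, in the wildtype and Glut5 KO libraries. Right, their log2 ratios with conditional exact 95% intervals; the named ratios lay above 1.6 at the upper end and below -2.2 at the lower end in both libraries.

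The highest genes were also compared along the range of marker counts. In members with 1 of the 5 genes found, Cd72 stood at 967 CPM (wildtype) and 1016 CPM (Glut5 KO), and in those with 3 or more at 1664 and 2075 CPM. The same groups had 138 and 215 CPM, then 346 and 443 CPM of Zmynd15. Pparg ranged from 16.6 and 20.01 CPM with 1 gene to 68.6 and 70.6 CPM with 3 or more. Of the 15 genes, 13 in the wildtype and 14 in the Glut5 KO library were higher with 3 or more genes found than with 1. Cd81 was lower in both (1072 and 941 CPM with 1 gene, 826 and 828 CPM with 3 or more), and Lilra5 in the wildtype library (94.0 and 71.3 CPM). With 1 gene found all 15 were above the other sets pooled in both libraries, but the 15 were ranked as highest in members that include these cells. Members with 1 gene found held 180917 and 199875 UMIs in all, so the rarer genes rest on few UMIs there. These counts only describe the members, since the choosing genes set both the members and the groups.

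Stretches upstream of the transcription start are printed for 3 of these 15 genes, Clec4b1, Gpr31b and Cd72, the first in rank that have a single annotated start, since the 15 genes were high together. Each is 250 bases from RefSeq, build GRCm38.p6, written 5′ to 3′ on the gene's strand and ending at the base before the start. Clec4b1 lies on the plus strand of chromosome 6 (123049712 to 123049961), Gpr31b on the minus strand of chromosome 17 (13052281 to 13052530) and Cd72 on the minus strand of chromosome 4 (43454627 to 43454876). Capitals mark GAGGAA, the core of the motif bound by PU.1 (the myeloid transcription factor encoded by Spi1), or the same letters on the other strand, TTCCTC.
Clec4b1: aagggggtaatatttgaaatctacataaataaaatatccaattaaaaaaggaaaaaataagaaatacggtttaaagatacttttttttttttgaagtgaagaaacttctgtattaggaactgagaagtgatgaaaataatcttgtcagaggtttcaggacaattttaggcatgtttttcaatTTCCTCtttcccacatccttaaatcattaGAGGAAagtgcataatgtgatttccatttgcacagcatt
Gpr31b: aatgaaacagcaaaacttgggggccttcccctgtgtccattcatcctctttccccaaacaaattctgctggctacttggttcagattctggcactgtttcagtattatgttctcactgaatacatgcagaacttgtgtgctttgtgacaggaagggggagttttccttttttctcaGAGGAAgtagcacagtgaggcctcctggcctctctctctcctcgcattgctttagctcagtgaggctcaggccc
Cd72: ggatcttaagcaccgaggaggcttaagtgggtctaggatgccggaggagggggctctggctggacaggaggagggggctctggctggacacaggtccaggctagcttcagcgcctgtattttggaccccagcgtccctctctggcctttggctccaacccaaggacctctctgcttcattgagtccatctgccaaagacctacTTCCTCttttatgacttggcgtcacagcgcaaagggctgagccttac
Of the 15 highest genes 13 matched a promoter in the table by symbol (Zmynd15 and Cd79b did not), and 11 of the 13 (84.6%) held the 6 letters on either strand within 250 bases upstream. Grap2 and Cd81 did not hold them. Of the 10 lowest genes 7 matched and 3 held them (42.9%), and of 7489 matched genes among all genes counted 26.8% did. A gene with several annotated starts was counted if any of them held the letters. By that count the share over all 27025 genes in the table was 25.85%. Taken singly, 23.25% of all 32851 promoters of that length held them. A match is a run of letters and not a site shown to be bound.

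The 10 lowest genes followed. F13a1, the coagulation factor XIII subunit of monocytes, stood at 4.40 and 5.30 CPM in members against 62.9 and 59.2 CPM in the other sets, log2 ratios of -3.79 [-4.72 to -3.08] and -3.44 [-4.24 to -2.81]. Hp, which encodes haptoglobin, stood at 29.5 and 10.9 CPM against 248 and 258 CPM. Fn1 (fibronectin) stood at 38.9 and 17.4 CPM against 336 and 144 CPM. Clec4e, the receptor Mincle, stood at 30.8 and 9.13 CPM against 170 and 144 CPM, and S100a4 at 17.9 and 20.3 CPM against 184 and 110 CPM. Slpi (a protease inhibitor), Ahnak, Mgst1 and Mcemp1 were also among them, at 5.97 to 26.1 CPM in members of both libraries. In the wildtype library all 10 genes were highest in the Ly6c2 Chil3 set, and in the Glut5 KO library 8 were, Slpi and Clec4e being highest in the Ptgs2 Vegfa set.

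Gene lists were then compared in the same way, with a floor of 20 UMIs per gene. Over all genes counted, at a floor of 100 UMIs, 3.58% were higher and 5.91% lower in both libraries. Of 16 classical monocyte genes outside the rule, 13 were at least 1.5-fold lower in members in both libraries and 0 higher (medians of -1.47 and -1.71 on the log2 scale, against 0.02 and -0.01 over all genes counted). Ly6c2 and Chil3 belong to the rule and are not among them. The list summed to 8694.5 CPM (wildtype) and 8875 CPM (Glut5 KO) in members, above the 7438 and 7598 CPM of the Pf4 Spp1 Mrc1 set. The Ly6c2 Chil3 set had 15657 and 16437 CPM, and the Ptgs2 Vegfa set 10612 and 11900 CPM. Of 16 nonclassical monocyte genes 4 were higher and 4 lower in both libraries (medians 0.05 and 0.20). Spn, which encodes CD43, stood at 24.5 and 41.3 CPM in members against 6.16 and 6.99 CPM, and Pou2f2, a transcription factor, at 217 and 195 CPM against 92.0 and 75.9 CPM. Clec4a3 was higher as well, at 584 and 578 CPM against 208 and 222 CPM. Nr4a1, on which nonclassical monocytes depend, was lower in members (651 and 510 CPM against 1275 and 849 CPM), and Ace, another gene of that list, had 0.63 and 1.18 CPM.

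Receptor families differed among their own members. Over all genes counted 3.58% were higher and 5.91% lower in both libraries. Of 18 genes of Fc receptors and their signalling chain 4 were higher in both libraries and 0 lower. Among the 4 were Fcgr4, a receptor for mouse IgG2 antibodies (675 and 804 CPM against 363 and 337 CPM), Fcer1g, its signalling chain (8020 and 7600 CPM against 4775 and 4431 CPM), and Fcgrt, the neonatal Fc receptor (64.7 and 89.0 CPM against 38.9 and 46.7 CPM). The low-affinity receptor Fcgr3 was not among them, at 566 and 559 CPM against 787 and 692 CPM. Of 8 other CD300 genes counted 2 were higher and 2 lower: Cd300ld and Cd300ld3 were higher, and Cd300lb was lower, at 6.59 and 2.36 CPM against 14.98 and 11.3 CPM. Of 10 other MS4A-type genes 3 were higher, namely Tmem176a (414 and 472 CPM against 157 and 208 CPM), Tmem176b (719 and 827 CPM against 330 and 394 CPM) and Ms4a14. Ms4a4a and Ms4a8a were lower.

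Several metabolic and interferon lists had more genes lower than higher, where 5.91% of all genes counted were lower and 3.58% higher in both libraries. Of 19 hypoxia genes 10 were lower and 0 higher (medians -0.76 and -0.92), and of 18 glycolysis genes 8 were lower and 0 higher (medians -0.59 and -0.69). Slc2a1, the glucose transporter GLUT1, stood at 68.8 and 71.3 CPM against 161 and 192 CPM. Of 22 lipid-handling genes 9 were lower and 3 higher, the highest being Pparg and Pltp, the phospholipid transfer protein (600 and 547 CPM against 152 and 189 CPM). The lipid list summed to 2793 and 2551 CPM in members, and to 3460 and 6371 CPM in the Pf4 Spp1 Mrc1 set. It summed to 3167.5 and 2893 CPM in the Ly6c2 Chil3 set and 2417.5 and 2839 CPM in the Ptgs2 Vegfa set. Of 29 interferon-gamma response genes 13 were lower and 0 higher (medians -0.71 and -0.64), among them Irf1 (118 and 196 CPM against 322 and 391 CPM). The interferon-gamma list summed to 2892.5 and 3684 CPM in members, near the 3288 and 3373 CPM of the Pf4 Spp1 Mrc1 set. In the Ly6c2 Chil3 and Ptgs2 Vegfa sets it summed to 5810 to 7479 CPM over both libraries. Type I interferon genes differed less, with 4 of 28 lower and 0 higher (medians -0.33 and -0.31). Of 48 nuclear genes of oxidative phosphorylation 0 were lower and 0 higher, with medians of 0.19 and 0.06. Of 21 genes of suppressive myeloid cells 6 were lower and 1 higher (medians -0.30 and -0.21). The highest were Il10, an anti-inflammatory cytokine (10.4 and 8.25 CPM against 1.65 and 2.96 CPM), and Cd200r1, an inhibitory receptor (13.8 and 7.37 CPM against 6.52 and 5.59 CPM). The lowest, Arg1 and Gpnmb, stood at 5.97 and 1.77 CPM against 53.6 and 36.3 CPM, and at 18.2 and 27.4 CPM against 48.6 and 547 CPM.

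Division genes were more often higher. Of 28 cell cycle genes outside the rule 20 were higher in members in both libraries and 0 lower (medians 1.34 and 1.08), although the rule had removed cells with more than 2 UMIs of 5 other division genes from every set. Over all genes counted 3.58% were higher and 5.91% lower. Tk1 (thymidine kinase) stood at 26.7 and 16.8 CPM against 5.70 and 5.02 CPM, and Mcm2, a subunit of the replicative helicase, at 22.6 and 20.04 CPM against 7.63 and 6.91 CPM. The list summed to 1243 and 1088 CPM in members, with the Pf4 Spp1 Mrc1 set close to that at 1040 and 914 CPM. The Ly6c2 Chil3 and Ptgs2 Vegfa sets had 626 to 745 CPM over both libraries. Within members the sum was 2946 and 1671 CPM in the shallow cells with 1 choosing gene found, and 1149 and 1072 CPM with 3 or more.

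The second comparison set Glut5 KO members against wildtype members. With 1 library per genotype no test and no replicate check can be had, and genotype, library batch, animals and mix of sexes cannot be told apart. Slc2a5 itself had 1 UMI in wildtype members and 0 in Glut5 KO members, so the loss could not be seen at this depth in the members. It could be seen in cells past the microglia limit without Fcrl5, at 6.91 CPM in the wildtype and 0 in the Glut5 KO library. Members made up 23.05% [21.4 to 24.8] of eligible macrophages in the wildtype library and 22.8% [21.4 to 24.3] in the Glut5 KO library. No order is read from these shares, since levels of the choosing genes over all eligible macrophages differed between the libraries: Klra17 stood at 51.7 and 35.4 CPM, Acp5 at 546 and 398 CPM and Ms4a7 at 496 and 690 CPM.

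Of 5917 genes counted in members, 133 (2.25%) were at least 1.5-fold higher and 169 (2.86%) at least 1.5-fold lower in the Glut5 KO library, and the median log2 ratio was -0.03. The members of that library were shallower (median 2668 against 5634 UMIs) and more often female, and the depth was closer between libraries in members with at least 3 of the 5 genes found (7006 and 7913.5 UMIs). Ratios in those members are therefore given beside several results. Shares over all genes are of genes with at least 100 UMIs, while a gene of a list needed 20 UMIs.

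Ratios were ranked among genes with at least 50 CPM in 1 library. Predicted genes and markers of other cell types, Jchain among them, were left out of the ranking. Dcstamp, which encodes a membrane protein needed for the fusion of macrophages and osteoclasts, had the highest ratio of the genes so ranked. It stood at 9.42 CPM [6.35 to 13.4] in wildtype and 107 CPM [96.2 to 119] in Glut5 KO members, a log2 ratio of 3.48 [2.97 to 4.09]. Dpys, an enzyme of pyrimidine breakdown, came next at 6.59 and 68.9 CPM (3.36 [2.74 to 4.11]). The genes lie side by side on chromosome 15, Dcstamp at 39745930 to 39760938 and Dpys at 39768487 to 39857470 (GRCm38). Both were higher in the Glut5 KO library in the other 3 sets too, with log2 ratios of 2.99 to 4.86 for Dcstamp and 2.97 to 4.19 for Dpys. Of 11 genes of osteoclasts and cell fusion counted, 1 was at least 1.5-fold higher, Dcstamp itself, and 1 at least 1.5-fold lower. Of all genes counted 2.25% were higher and 2.86% lower. Tnfrsf11a, the receptor RANK, stood at 20.7 and 28.3 CPM.

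Chemokines stood on both ends. Ccl7, which recruits monocytes through CCR2, stood at 297 CPM in wildtype and 624 CPM in Glut5 KO members (1.07 [0.96 to 1.18]), and Ccl8, of the same family, at 33.0 and 118 CPM (1.84 [1.53 to 2.17]). Ccl8 had 0 UMIs in the 130 wildtype female members and 79 in the 200 Glut5 KO female members, and 33 and 167 in the male members. Cxcl13, which attracts B cells, stood at 64.4 CPM in wildtype and 11.8 CPM in Glut5 KO members (-2.43 [-2.98 to -1.95]). Nearly all of its sexed UMIs came from female cells, 148 in the wildtype and 8 in the Glut5 KO library, against 1 and 0 in male cells. Ccl4, an attractant for lymphocytes and monocytes, was the most abundant chemokine in wildtype members, at 4272 CPM, and stood at 2756 CPM in Glut5 KO members (-0.63 [-0.67 to -0.59]). Ccl5 stood at 3967 and 4050 CPM. Over 14 chemokines 3 were higher and 3 lower, beside 2.25% and 2.86% of all genes counted.

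Further genes at the upper end were of several kinds. Acsl1, which activates long-chain fatty acids, stood at 33.3 and 78.1 CPM (1.23 [0.90 to 1.57]). Gdf3, a growth factor of the TGF-beta family, stood at 54.0 and 122 CPM, and Zbtb20, a transcriptional repressor, at 29.8 and 81.0 CPM. Kcnn4, a calcium-gated potassium channel, stood at 26.1 and 57.2 CPM, Tmem171 at 23.5 and 63.7 CPM, Clec12a, an inhibitory lectin receptor, at 82.6 and 168 CPM, and Hspa1b, a heat-shock protein, at 71.0 and 149 CPM. In members with at least 3 of the choosing genes the log2 ratios of these 7 genes ranged from 0.91 (Clec12a) to 1.44 (Tmem171). Each of the 7 was also above 0 in male and in female members taken alone.

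**Figure D4:**
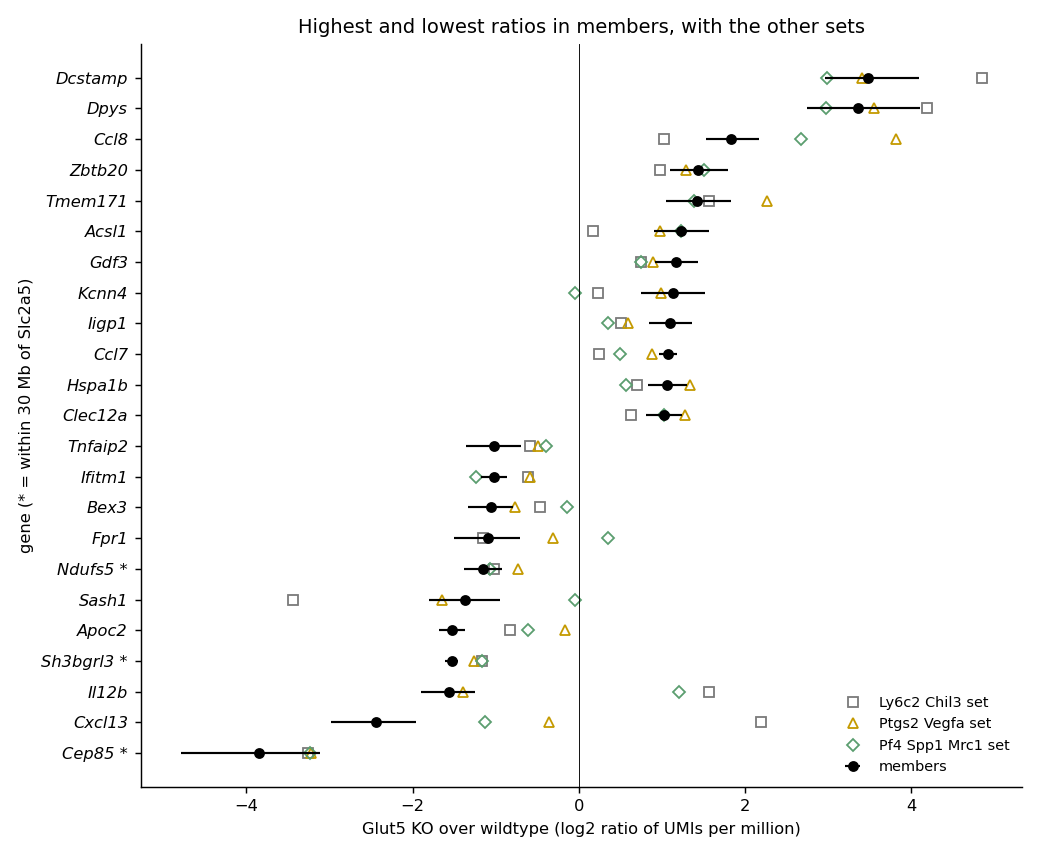
Log2 ratios of Glut5 KO over wildtype for the 12 highest and 11 of the 12 lowest ranked genes. Filled circles are members, with conditional exact 95% intervals, and open symbols the other 3 sets. Predicted genes and markers of other cell types were not ranked. An asterisk marks genes within 30 Mb of Slc2a5. Dcstamp, Dpys, Cep85 and Sh3bgrl3 had ratios of one sign in all 4 sets, while Cxcl13 and Il12b were below 0 in members and above 0 in the Ly6c2 Chil3 set.

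At the lower end, 4 of the 12 genes lay on the chromosome of the deleted gene within 30 Mb of it, and 0 of the 12 highest did. Cep85, a centrosomal protein, stood at 61.2 CPM in wildtype and 4.13 CPM in Glut5 KO members (-3.84 [-4.79 to -3.11]). Its neighbour Sh3bgrl3 stood at 1711 and 593 CPM (-1.53 [-1.60 to -1.46]). They lie on chromosome 4 at 134129858 to 134187112 and 134127406 to 134128789. Ndufs5, a subunit of respiratory complex I, is another of the 4 and stood at 156 and 70.1 CPM. The ratios of these 3 genes were below 0 in each of the other 3 sets and in both sexes. Over all genes counted, 15 of 184 within 30 Mb of Slc2a5 (8.15%) passed 1.5-fold in either direction, against 287 of 5733 elsewhere (5.01%). The cause of that difference was not tested.

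The remaining genes at the lower end included Apoc2, a cofactor of lipoprotein lipase, at 396 CPM in wildtype and 138 CPM in Glut5 KO members (-1.52 [-1.68 to -1.37]). It was lower in both sexes. Il12b, the shared p40 subunit of IL-12 and IL-23, stood at 94.2 and 31.8 CPM (-1.56 [-1.90 to -1.24]), and its sexed wildtype UMIs lay in female members (163) more than in male members (8). In members with 2 of the choosing genes found the ratios of Cxcl13 and Il12b were 0.25 and 0.26, and in those with 3 or more they were -3.75 and -1.66. Ifitm1, an interferon-induced membrane protein, stood at 312 and 154 CPM (-1.02 [-1.18 to -0.87]), but its log2 ratio was 0.063 [-0.29 to 0.41] in male and -2.41 [-2.75 to -2.10] in female members. Fpr1, a receptor for bacterial formyl peptides, stood at 50.5 and 23.6 CPM, and Tnfaip2 at 69.4 and 34.2 CPM. Sash1, a scaffold protein, stood at 50.2 and 19.4 CPM, and the X-linked Bex3 at 106 and 51.0 CPM.

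Of 15 genes of MHC class II presentation 5 were at least 1.5-fold higher and 1 at least 1.5-fold lower in Glut5 KO members, where 2.25% and 2.86% of all genes counted were. The floor was 20 UMIs for the list and 100 UMIs for all genes. H2-Ab1 stood at 5596 CPM in wildtype and 9173 CPM in Glut5 KO members (0.71 [0.69 to 0.74]), H2-Aa at 6889 and 11203 CPM (0.70 [0.68 to 0.73]) and H2-Eb1 at 5865 and 11102 CPM (0.92 [0.90 to 0.95]). These encode the chains of the complex. Ciita, the master regulator of the locus, stood at 30.1 and 52.5 CPM (0.80 [0.43 to 1.17]), and Cd74, the invariant chain, at 21412 and 34434 CPM. The lower gene was Cd80, a costimulatory ligand, at 60.6 and 35.6 CPM, and Ifi30, a thiol reductase of antigen processing, had a log2 ratio of -0.32. The median of the list was 0.23, and 0.23, 0.01 and -0.06 in the Ly6c2 Chil3, Ptgs2 Vegfa and Pf4 Spp1 Mrc1 sets. It was 0.059 in male and 0.73 in female members, a difference that was not tested and in which sex and animal cannot be told apart. In members with at least 3 choosing genes it was 0.37.

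Interferon-gamma response genes were counted next. Of 27 genes 9 were at least 1.5-fold higher and 0 lower, with a median of 0.37 against -0.03 over all genes counted. Of all genes counted 2.25% were higher and 2.86% lower. Iigp1, an immunity-related GTPase, stood at 55.3 and 119 CPM (1.101 [0.84 to 1.37]), Igtp, of the same family, at 59.7 and 108 CPM, Irf1 at 118 and 196 CPM and Cxcl9 at 179 and 283 CPM. Cxcl10, another target, stood at 388 and 413 CPM (0.09 [-0.02 to 0.20]), and the receptor genes Ifngr1 and Ifngr2 had ratios of 0.01 and 0.02. The median was 0.27, 0.28 and 0.17 in the other 3 sets, 0.29 in male and 0.58 in female members, and 0.54 in members with at least 3 choosing genes. Of 28 type I interferon genes 3 were higher and 0 lower (median 0.26, and 0.25 to 0.43 in the other sets). Of 21 MHC class I genes 4 were higher and 0 lower (median 0.25, and 0.22 to 0.26 in the other sets). Ly6a, the interferon-inducible Sca-1, stood at 1159 and 2224 CPM.

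Of 21 inflammatory cytokines and NF-kB targets 5 were at least 1.5-fold lower and 1 higher in Glut5 KO members, beside 2.86% and 2.25% of all genes counted, with a median of -0.23, while the medians of the other 3 sets were 0.14, 0.16 and 0.14. Tnf stood at 87.3 and 52.7 CPM (-0.73 [-1.01 to -0.45]), Il1a at 42.4 and 19.2 CPM (-1.14 [-1.60 to -0.71]), Nfkb2 at 65.9 and 40.1 CPM, and Il1b, the most abundant, at 3521 and 3001 CPM (-0.23 [-0.27 to -0.19]). The gene above 1.5-fold was Il6, with 6 and 18 UMIs, which is under the floor of 100 UMIs for the shares over all genes. Il18 and Tnfaip3 had ratios of 0.37 and 0.35. The difference between the sets was not tested, and the median was 0.042 in male members and -0.36 in female members.

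The growth factor and matrix, classical monocyte and oxidative phosphorylation lists had medians below 0 as well. Of all genes counted 2.86% were lower and 2.25% higher. Of 17 growth factor and matrix genes 7 were lower and 2 higher (median -0.33, but 0.37 in male members), including Ecm1 at 202 and 122 CPM and Fn1 at 38.9 and 17.4 CPM, while Pdgfb stood at 14.8 and 30.1 CPM. Among 16 classical monocyte genes 4 were lower and 3 higher (median -0.23, but 0.15 with Tmem119 and Olfml3 dropped from the microglia limit). All 48 nuclear genes of oxidative phosphorylation were counted, 2 of them at least 1.5-fold lower and 0 higher, a share near the 2.86% of all genes, with a median of -0.20. The lowest were Ndufs5 and Ndufa4 (296 and 192 CPM, -0.62 [-0.77 to -0.48]). The median was -0.041 in male and -0.25 in female members. Glycolysis and hypoxia lists had medians of 0.02 each, and of 9 genes of hexose transport and fructose handling 0 were higher and 2 lower. Khk, the kinase that opens fructose breakdown, stood at 33.3 and 30.4 CPM (-0.13 [-0.54 to 0.27]).

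**Figure D5:**
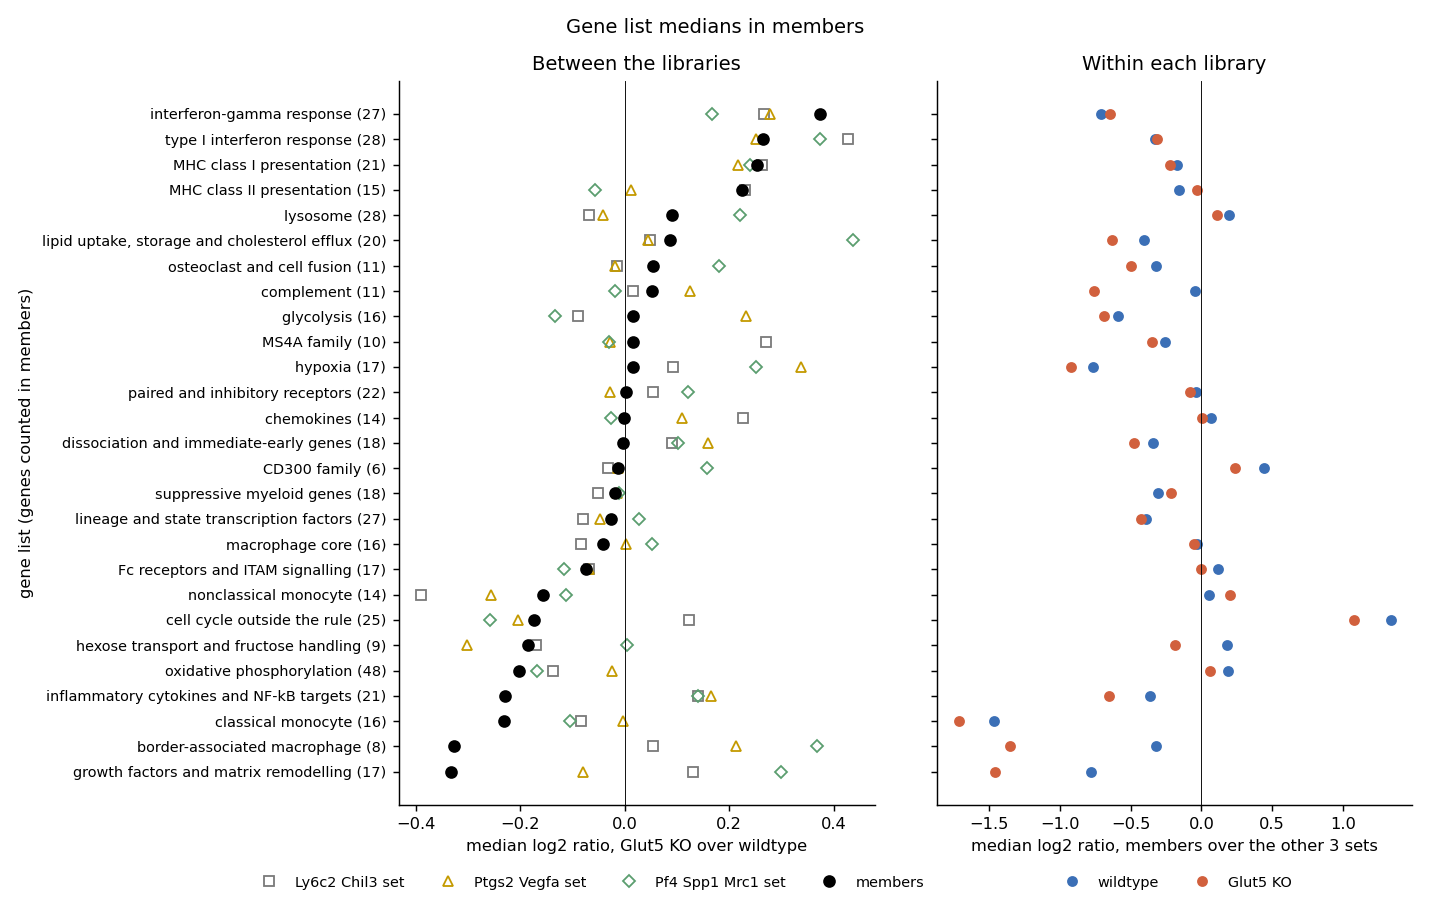
Median log2 ratios of 27 gene lists, with the number of genes counted in members in brackets. Left, Glut5 KO over wildtype in members and in the other 3 sets, with interferon-gamma response highest (0.37) and growth factors and matrix remodelling lowest (-0.33) in members. Right, members over the other 3 sets in each library, with cell cycle genes highest and classical monocyte genes lowest in both.

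Immunoglobulin and plasma cell transcripts also differed between the libraries. Immunoglobulin genes summed to 301 CPM [283 to 321] in wildtype and 3782 CPM [3717 to 3848] in Glut5 KO members. In the Glut5 KO library the sum was 1187, 3131 and 563 CPM in the other sets, against 138, 103 and 117 CPM in the wildtype library. Jchain, which joins secreted IgM and IgA, had 0 UMIs in wildtype members, which allows up to 0.94 CPM, and 201 CPM in Glut5 KO members, while Ms4a1 had none in wildtype members. Immunoglobulin genes were left out of the counts over all genes. The part of free RNA in these and other values was not tested.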

How the data were processed

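The deposited matrices hold whole counts of UMIs, not normalized, per the file headers. The submitters' processing notes name Cell Ranger 3.1.0 with mm10, and the matrix headers name version 7.0.1. No source used here says whether introns were counted. Barcodes with at least 300 genes and under 10% mitochondrial UMIs were kept: 11473 wildtype and 12112 Glut5 KO cells, from libraries of 116105873 and 96851696 UMIs. Doublets were not removed in the main values, and an alternative left out the top 8% of Scrublet scores.

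Counts of members were summed per library and divided by their total (3185117 and 3393754 UMIs). Log2 ratios had 0.5 added to each count. A gene needed 100 UMIs over the groups compared, a list member 20, and a list 5 members. The 44 rule genes, mitochondrial, ribosomal, sex-linked, immunoglobulin and T cell receptor genes were left out. Intervals are exact Poisson, Clopper-Pearson or conditional exact binomial ones, cover counting error only, and the floor for 0 UMIs is 3 counts. Each genotype has 1 library, so no test was run.

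Named genes were the 15 highest and 10 lowest of members against the other sets (ranked by the weaker library, at least 50 CPM), the 12 highest and 12 lowest ratios between libraries, and the 2 at each end of a list. The ranking between libraries left out predicted genes and markers of other cell types. Further genes were named once their values were known. Some genes of these sets and lists are not reported here. The members and the 36 lists were chosen with earlier results of these data known. Positions come from the GENCODE annotation of GRCm38 and matched 32235 of 32285 genes. Python 3.11.15, numpy 2.4.6, scipy 1.17.1 and scanpy 1.11.5 were used, and the code was tested on simulated data.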

Additional observations from a re-analysis of the deposited data

Results flagged for a closer look

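The ratio of Glut5 KO over wildtype went opposite ways between groups of cells for 3 genes, and none of these differences was tested. Fpr1 had a log2 ratio of 1.33 in male members (7 and 15 UMIs) and -1.25 in female members (54 and 36 UMIs). Cxcl13 had -2.43 in members and 2.20 in the Ly6c2 Chil3 set. Il12b had -1.56 in members, 1.57 in the Ly6c2 Chil3 set and 1.21 in the Pf4 Spp1 Mrc1 set. Immunoglobulin genes, which were left out of the comparisons over all genes, summed to 3782 CPM in Glut5 KO members against 301 CPM in wildtype members. The cause of these differences was not tested.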

How the results depend on the processing

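The 24 named ratios between the libraries kept their sign under the alternatives in which they could be computed, except that in male members Fpr1 was 1.33 and Ifitm1 0.063 on the log2 scale. The ratios of all 25 genes named for members against the other sets kept theirs in both libraries. The share of eligible macrophages (wildtype, then Glut5 KO) became 29.96% and 24.87% with the rule run on cells thinned to 2000 UMIs, 19.87% and 18.72% with at least 2 markers, 14.14% and 10.67% with at least 3 markers, 11.76% and 11.19% in male cells and 34.67% and 35.65% in female cells. It was 26.06% in the Glut5 KO library at a macrophage level of 200 per 10000, and 31.26% in the wildtype library with Tmem119 and Olfml3 dropped from the microglia limit. The last alternative and that with at least 3 markers were chosen after seeing the data.

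Genes at least 1.5-fold higher in Glut5 KO members numbered 230 with the rule on thinned cells, 245 with the looser microglia limit, 58 with members thinned and 2730 with no floor on UMIs. Genes at least 1.5-fold lower numbered 41 in male cells, 82 with members thinned and 2384 with no floor. Against the other sets, male cells gave 159 higher and 287 lower genes, and a floor of 20 UMIs gave 649 higher genes. The causes of these changes in number were not tested.

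Median log2 ratios between libraries moved for MHC class II (0.059 in male, 0.73 in female cells), inflammatory genes (-0.080 with the rule on thinned cells, 0.042 in male cells), oxidative phosphorylation (-0.041 in male cells), cell cycle genes (0.36 in female cells) and interferon-gamma genes (0.87 with the looser microglia limit). The growth factor and matrix median changed sign in male cells (0.37), and the classical monocyte median with the looser limit (0.15). Other lists changed sign as well, such as nonclassical monocyte (-0.196 to 0.301) and hypoxia (-0.290 to 0.267). Across lists and alternatives, 344 of 425 medians between libraries kept their sign. Of the medians of members against other sets, 692 of 762 did. Of members against other sets, the B and plasma cell list turned to -0.87 (wildtype) and -0.64 (Glut5 KO) with the rule on thinned cells, and to -1.05 in Glut5 KO with the looser limit. In Glut5 KO male cells the microglia list turned to 0.25 and the plasmacytoid dendritic cell list to 0.49. The causes were not tested.

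Depth limits the rare genes: at 3 counts the floor was 0.94 CPM in wildtype and 0.88 CPM in Glut5 KO members. No paired analysis was possible because each genotype has 1 library.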
